A study of Bos taurus with 24 samples.

Results

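Dermal fibroblasts cultured from Holstein and Angus heifers were compared after 8 h of exposure to lipopolysaccharide (LPS), 4 Holstein cultures against 4 Angus cultures, each from a different animal. These 8 samples are all of the 8 h samples among the 24 of the series, whose other 16 come from the same 8 cultures at 0 h and 2 h. They were taken by the breed and the hour in their labels, and no measured value was used to choose them. Every row of the deposited tables that carries a gene symbol was considered, 27550 of 59846 rows, and the 13099 that reached the expression limit given below were tested.

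Holstein is a dairy breed and Angus a beef breed. All animals were heifers of the same age, and the skin had been taken from the shoulder. In the methods of the study the cultures of both breeds were handled by the same steps. Dairy calves such as Holstein are usually taken from the dam soon after birth and beef calves such as Angus are left to suckle, so that breed and early rearing cannot be told apart. The cultures were third-passage fibroblasts revived from frozen stocks, grown in medium with 5% fetal bovine serum, insulin, transferrin and selenium, plated in 6-well plates and given 100 ng/ml of LPS from Escherichia coli. Lysates of duplicate wells were pooled, so that each sample is 1 culture from 1 animal and no breed group holds repeat cultures of an animal. Each breed was thus represented by 4 animals, and an animal's own traits and its breed cannot be told apart beyond the spread between those animals.

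LPS is the outer membrane glycolipid of Gram-negative bacteria. It is recognised by TLR4 with its co-receptors MD-2 and CD14, and the signal runs along a pair of branches. One of them, through MYD88, frees NF-kB from its inhibitors and switches on chemokines, cytokines and the feedback inhibitors themselves. The other, through TRIF and IRF3, leads to type I interferon, whose receptor and STAT factors turn on a later set of antiviral, interferon-stimulated genes. Fibroblasts are the cells that build the dermal matrix, and they also call in neutrophils and monocytes by secreting chemokines.

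After 8 h of LPS, Holstein cultures had more RNA of the LPS receptor TLR4, of the NF-kB inhibitor NFKBIA and of 6 of the 11 chemokines tested, IL8 among them with a log2 difference of 2.19 ± 0.51 (SE, n = 4 per breed). They also had more of 20 of 66 interferon-stimulated genes and of the matrix genes FN1, COL4A1 and COL4A2. They had less of the chemokine CXCL12, of tissue factor (F3), of the agouti signal ASIP and of 8 of 58 mitosis genes. Leaving out a single sample moved these counts, to between 3 and 9 chemokines, 13 and 29 interferon-stimulated genes and 2 and 33 mitosis genes. Among all tested rows with a symbol, 2.41% were higher and 1.05% were lower in Holstein by the threshold given below, which all of these counts use. No difference was detected in IL6, and TNF was too low to be tested.

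Libraries at 8 h held 42083848 to 68883145 reads, of which 94.0% to 95.2% matched the genome, and the summed counts of 60861294 to 99083582 per sample showed no detectable difference between the breeds (exact two-sided permutation test, n = 4 per breed, p = 0.4). The 10 largest rows took 10.96% to 13.96% of the counts in Angus and 15.1% to 16.1% in Holstein. Levels are given as CPM, counts per 1000000 of the scaled library, and 3 counts, the smallest number taken as detected, stood for 0.0303 to 0.0493 CPM. All 13 fibroblast markers were tested, at levels from 29.5 to 33722 CPM, and none of them was past the threshold given below. Their summed level ranged from 41569 to 65019 CPM among Angus and from 67715 to 87039 CPM among Holstein samples. Most of this sum was COL1A2 and COL3A1. Single markers ran both ways, with log2 differences (Holstein minus Angus) from 0.95 for COL3A1 to -0.82 for PDGFRA. The part of these markers in the other differences was not tested. The summed markers of melanocytes, leukocytes, adipocytes, skeletal muscle and smooth muscle overlapped between the breeds. The 9 keratinocyte markers summed to 1.67 to 1.93 CPM among Angus and 2.06 to 15.9 CPM among Holstein samples. The 8 endothelial markers summed to 2.76 to 3.51 CPM among Angus and 3.74 to 5.55 CPM among Holstein samples, with VWF past the threshold. Most of the endothelial sum was VWF and TEK. PECAM1, which was too low to be tested, ran the other way, with means of 0.792 CPM in Angus and 0.309 CPM in Holstein. In bulk RNA such as this, fewer cells of a kind and less RNA per cell cannot be told apart. Keratinocyte KRT1, melanocyte TYRP1, endothelial TIE1 and CLDN5, and leukocyte CD3E, TYROBP and CD79A were under 3 counts in all 8 samples. Values in the text run from animal 1 to animal 4 of each breed.

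A row was past the threshold when its false discovery rate (FDR) by the edgeR likelihood-ratio test was under 0.05, its difference at least 2-fold and its average level above 1 CPM. Log2 differences are Holstein minus Angus, with their standard errors. Of the 13099 rows with a symbol, 453 were past the threshold, a background of 3.46%. Among them 316 were higher in Holstein (2.41% of rows tested) and 137 lower (1.05%). With libraries scaled by their total count alone, the split over all rows moved from 460 higher and 213 lower to 396 higher and 314 lower, and the median log2 difference of all rows from 0.0057 to -0.0761. All animals of one breed lay above all animals of the other in 269 of the 316 higher rows and 108 of the 137 lower rows, where 22.6% of all tested rows with a symbol showed such separation, 12% with Holstein above and 10.5% with Angus above. Most differences were moderate, with a median of 1.35 on the log2 scale among higher rows and 1.3 among lower rows in absolute terms. A 4-fold difference or more was reached by 49 higher and 20 lower rows. The quasi-likelihood F test of edgeR called 2.72% of the rows with a symbol and kept 236 of the higher and 120 of the lower rows. An FDR under 0.05 at any size of difference was reached by 18.7%. Over all 20679 rows tested, those without a symbol included, 3.25% were past the threshold, 2.22% higher and 1.03% lower.

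The cultures did not weigh equally. Without Angus animal 3, whose values lay nearest to Holstein in many of the lists below, the count over all rows rose from 673 to 1133, and without Angus animal 4 it fell to 446. Of the 316 higher and 137 lower rows, 163 and 64 stayed past the threshold whichever sample was left out. In the text below, genes were past the threshold unless stated, and where leaving out a single sample undid this, that sample and the log2 difference without it follow (Angus 4 for Angus animal 4). A row above 1 CPM only in the 4 animals of one breed could not be tested when one of them was left out.

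**Figure D1:**
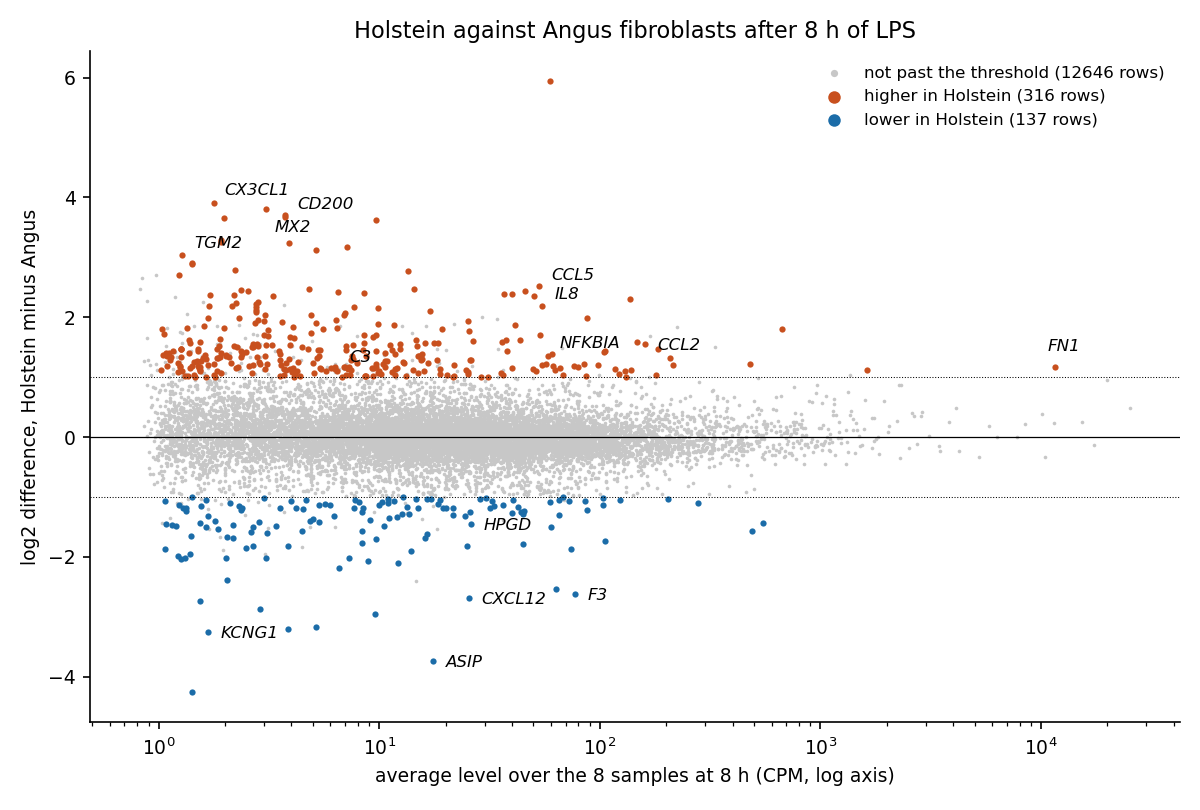
Each point is a gene row tested at 8 h, placed by its average level over the 8 samples in CPM (log axis) and by its log2 difference, Holstein minus Angus, with dotted lines at a 2-fold difference. The 316 rows higher in Holstein (orange) and the 137 lower rows (blue) lie mostly at low to middle levels. Among the labelled genes FN1 has the highest average and lies farthest to the right.

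Of 5 Toll-like receptors and LPS co-receptors tested, 2 were higher in Holstein and none lower. Their log2 differences ran from -0.87 to 1.34. Without Angus animal 2 or Holstein animal 2 or 4, 1 member was lower, and 1 was lower at 0 h and at 2 h. TLR4, the LPS receptor, stood at 1.12, 1.21, 1.61 and 0.718 CPM in Angus and 2.01, 5.03, 2.29 and 2.45 CPM in Holstein. Holstein animal 2 was well above the other animals of its breed, and no Angus animal reached the lowest Holstein animal (log2 difference 1.33 ± 0.36, FDR = 0.00457, lost without Holstein 2 at 0.95). TLR6, which pairs with TLR2 to bind bacterial lipoproteins, was at 3.72, 5.21, 5.57 and 2.45 CPM in Angus and 11.005, 11.1, 9.99 and 10.9 CPM in Holstein, again without overlap (log2 difference 1.34 ± 0.25, FDR = 1.03e-05). Of the 24 adaptors, kinases and regulators of TLR4 signalling, 2 were higher and none lower, both of them feedback inhibitors of NF-kB. TNIP1, a ubiquitin-binding partner of A20, was at 99.2, 78.6, 154 and 53.98 CPM in Angus and 257, 312, 196 and 309 CPM in Holstein (log2 difference 1.48 ± 0.3, FDR = 9.67e-05). Angus animal 3 stood nearest to Holstein in this gene. TNFAIP3, which encodes A20 itself, was at 6.51, 6.03, 8.03 and 2.75 CPM in Angus and 11.6, 25.8, 8.7 and 15.5 CPM in Holstein (log2 difference 1.4 ± 0.39, FDR = 0.00658), with Holstein animals 1 and 3 not far above Angus animal 3.

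Among 14 NF-kB subunits and inhibitors, 3 were higher, none was lower, and 12 had a positive log2 difference, with a median of 0.55 against -0.0022 over all tested rows with a symbol. NFKBIA encodes the inhibitor that holds NF-kB in the cytoplasm and is itself an NF-kB target. It was at 35.2, 28.3, 41.6 and 25.4 CPM in Angus and 77.1, 101, 72.2 and 82.1 CPM in Holstein. The highest Angus animal was well under the lowest Holstein animal (log2 difference 1.35 ± 0.18, FDR = 1.88e-10), and this call was kept whichever sample was left out. BIRC3, an anti-apoptotic ubiquitin ligase, was at 18.8 to 48.6 CPM across Angus and 52.4 to 84.4 CPM across Holstein animals (log2 difference 1.13 ± 0.28, lost without Angus 4 at 0.94). NFKBIZ, a nuclear co-activator of late cytokine genes, was at 13.6 to 25.8 CPM across Angus and 33.8 to 45.95 CPM across Holstein animals (log2 difference 1.01 ± 0.2, lost without Angus 2 or 4 or Holstein 2 at 0.87 to 0.96).

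Among the 56 gene lists examined, chemokines had the largest share of members past the threshold. Of the 11 tested, 6 were higher and 1 lower in Holstein, where 2.41% and 1.05% of all tested rows with a symbol were, and the median log2 difference was 1.55. The F test kept 4 of the 6, CCL20 (FDR = 0.0641) and CXCL16 (FDR = 0.0786) being lost. The 6 became 3 without Holstein animal 1, 2 or 4, where 10 chemokines could be tested, and 9 without Angus animal 3. IL8, the main neutrophil attractant, was at 20.7, 10.4, 40.1 and 6.84 CPM in Angus and 51.9, 131, 77.5 and 96.8 CPM in Holstein. Every Holstein animal was above every Angus animal, and Angus animals 4 and 2 were the lowest (log2 difference 2.19 ± 0.51, FDR = 0.00108). CCL20, which draws immature dendritic cells and lymphocytes through CCR6, was at 0.547, 0.535, 3.12 and 0.0146 CPM in Angus and 9.94, 17.6, 3.32 and 5.93 CPM in Holstein. Angus animal 3, at 3.12 CPM, nearly reached Holstein animal 3, at 3.32 CPM, and Angus animal 4 had 1 count (log2 difference 3.12 ± 0.99, FDR = 0.0276, lost without Angus 1 or 2 or Holstein 1, 2 or 4 at 2.6 to 3.28).

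The attractants of monocytes and T cells followed the same order. CCL2, the monocyte attractant, was at 87.005, 70.5, 126 and 41.5 CPM in Angus and 201, 374, 181 and 198 CPM in Holstein (log2 difference 1.55 ± 0.35, FDR = 0.00053). CCL5, which attracts T cells and monocytes, was at 6.56, 17.7, 34.98 and 3.13 CPM in Angus and 74.6, 102, 49.5 and 134 CPM in Holstein (log2 difference 2.52 ± 0.63, FDR = 0.00306). In both genes the lowest Holstein animal was animal 3 and the highest Angus animal was animal 3. CX3CL1, a membrane-anchored chemokine that also acts as an adhesion molecule, had the largest positive difference among the genes that were named by rule, at 0.173, 0.0986, 0.572 and 0.0146 CPM in Angus and 1.05, 6.77, 1.91 and 3.35 CPM in Holstein (log2 difference 3.91 ± 0.83, FDR = 0.000769). Angus levels were close to the detection limit, and the row could not be tested when a Holstein sample was left out, since fewer than 4 samples then reached 1 CPM. CXCL16, a scavenger receptor and chemokine in one molecule, was at 12.3 to 60.7 CPM across Angus and 65.5 to 84.4 CPM across Holstein animals (log2 difference 1.2 ± 0.4, lost without Angus 1, 2 or 4 or Holstein 1, 2 or 4 at 0.92 to 1.25). CXCL12, a chemokine that keeps leukocytes and stem cells in place, ran the other way, at 52.5, 19.5, 18.6 and 85.99 CPM in Angus and 7.24, 3.03, 5.96 and 11.2 CPM in Holstein. It was the lowest in Holstein animal 2, the animal with the most IL8 (log2 difference -2.68 ± 0.54, FDR = 0.000159).

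**Figure D2:**
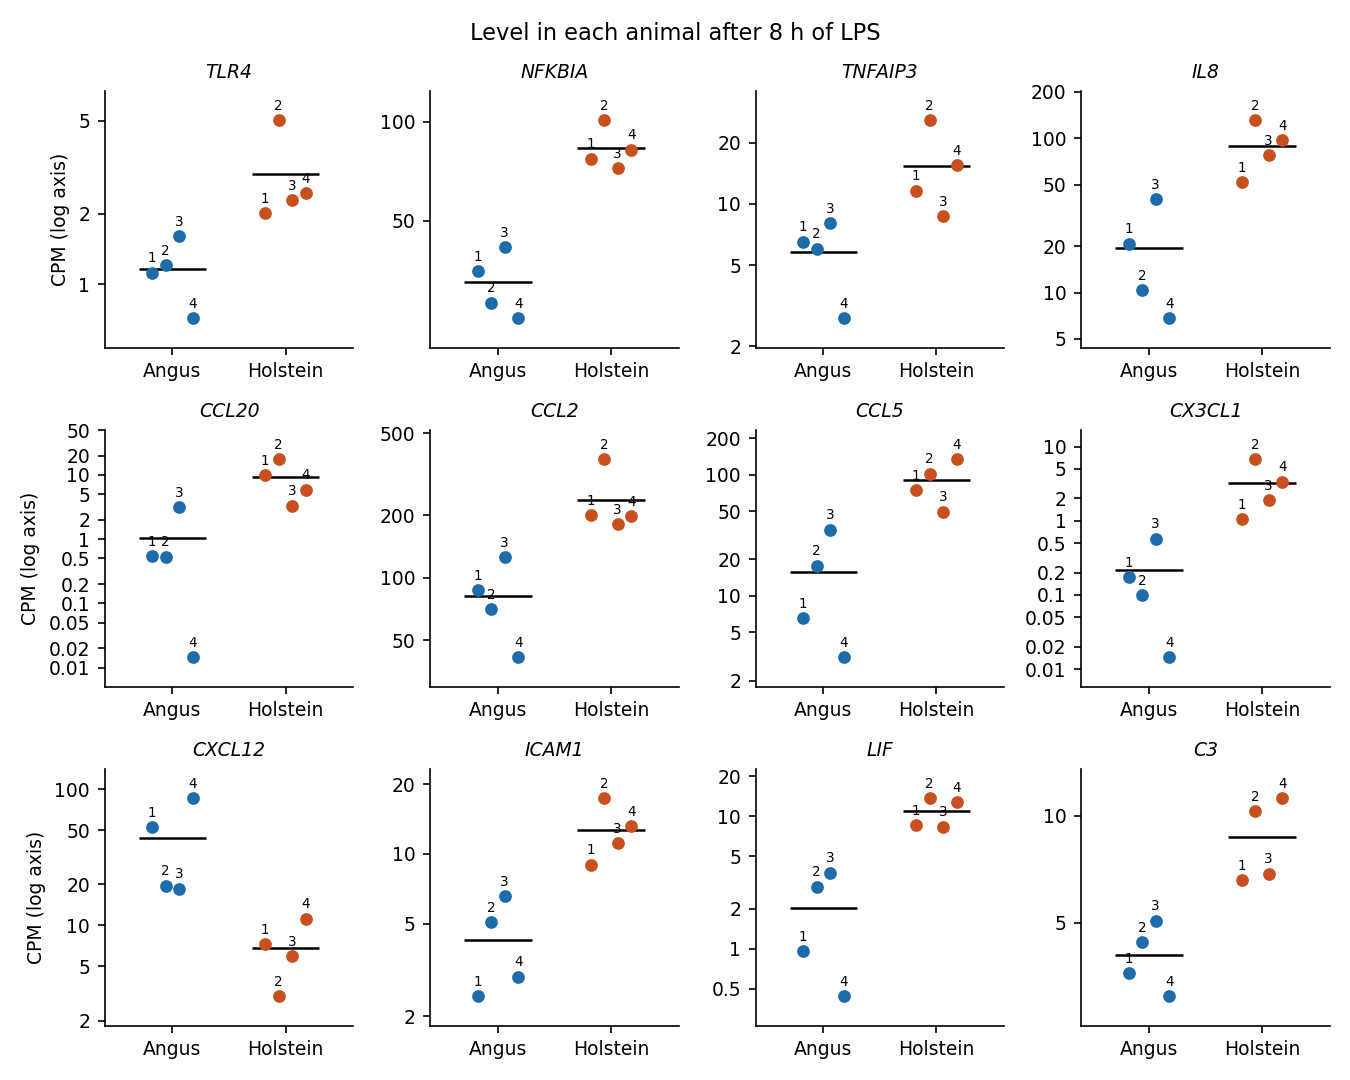
Level of 12 immune genes at 8 h in CPM (log axes that differ between panels), with each point 1 animal, numbered 1 to 4 within its breed, and each bar the mean of 4 animals. IL8 ran from 6.84 to 40.1 CPM among Angus and from 51.9 to 131 CPM among Holstein animals, CXCL12 was reversed, and Angus animal 3 was the nearest Angus animal to Holstein in most panels.

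Other secreted mediators were mixed. LIF, a cytokine of the IL-6 family, was at 0.9602, 2.94, 3.75 and 0.439 CPM in Angus and 8.602, 13.7, 8.32 and 12.8 CPM in Holstein (log2 difference 2.42 ± 0.56, FDR = 0.00118). IL34, a ligand of the CSF1 receptor that supports macrophages, was at 5.46 to 10.9 CPM across Angus and 11.2 to 19.3 CPM across Holstein animals (log2 difference 1.03 ± 0.24, lost without Angus 1 or 4 or Holstein 1 at 0.9 to 1.0). They were the 2 members past the threshold among 11 interleukins and cytokines. IL6 itself varied widely within both breeds, at 37.6, 27.04, 134 and 3.98 CPM in Angus and 55.1, 72.96, 57.3 and 128 CPM in Holstein. Angus animal 3 exceeded all Holstein animals, and no difference was detected (log2 difference 0.63 ± 0.76, FDR = 0.628). TNF was not tested, with levels of 0 to 0.044 CPM across Angus and 0.0528 to 0.117 CPM across Holstein animals, close to the 3-count limit. None of 24 cytokine and chemokine receptors was past the threshold. The 2 with the smallest p, both far under a 2-fold difference, were IL1R1, the interleukin-1 receptor, at 31.5 to 40.1 CPM across Angus and 41.2 to 52.2 CPM across Holstein animals (log2 difference 0.37 ± 0.12, FDR = 0.0225, not past the threshold), and IFNGR2, a chain of the interferon-gamma receptor, at 68.8 to 94.4 CPM across Angus and 94.1 to 107 CPM across Holstein animals (log2 difference 0.32 ± 0.12, FDR = 0.0448, not past the threshold).

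Interferon-stimulated genes gave more higher members than any other list. Of 66 tested, 20 were higher and none lower (30.3% against 2.41% of all tested rows with a symbol), and 36 had a positive difference at an FDR under 0.05 whatever its size. The median log2 difference was 0.85 at 8 h, while over the members tested there it was -0.07 at 0 h and 0.02 at 2 h, and no member was past the threshold at 0 h. The F test gave 16 higher members. Leaving out a sample moved the count from 13, without Angus animal 4 or Holstein animal 4, to 24 without Holstein animal 2 and 29 without Angus animal 3.

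MX2, a dynamin-like antiviral GTPase, was at 0.787, 0.3803, 0.341 and 0.103 CPM in Angus and 6.29, 3.38, 5.41 and 7.65 CPM in Holstein. Every Angus animal was under 1 CPM and every Holstein animal above 3 CPM (log2 difference 3.81 ± 0.48, FDR = 4.36e-10), and the row overlaps that of FAM3B. IFI27, a mitochondrial interferon-induced protein, was at 0.533, 0.648, 1.72 and 0.0439 CPM in Angus and 7.98, 3.01, 11.3 and 5.69 CPM in Holstein (log2 difference 3.24 ± 0.75, FDR = 0.00184). RSAD2 encodes viperin, which makes a chain-terminating nucleotide, and was at 0.205 to 1.34 CPM across Angus and 1.58 to 4.87 CPM across Holstein animals (log2 difference 2.25 ± 0.51). CMPK2, a nucleotide kinase encoded 12319 bases from RSAD2 on chromosome 11, was at 0.789 to 3.23 CPM across Angus and 3.703 to 7.79 CPM across Holstein animals (log2 difference 1.66 ± 0.4). Among cytosolic sensors of RNA, DNA and peptidoglycan, 4 of 14 tested were higher and none lower. All 4 also belong to the 20 higher interferon-stimulated genes, so the 2 counts are not separate. These were ZBP1, a Z-form nucleic acid sensor, at 0.308 to 2.26 CPM across Angus and 2.33 to 5.62 CPM across Holstein animals (log2 difference 2.17 ± 0.59), IFIH1, which encodes MDA5, at 2.64 to 9.41 CPM across Angus and 11.7 to 22.5 CPM across Holstein animals (log2 difference 1.87 ± 0.4), and DHX58 and DDX58, which encode LGP2 and RIG-I. DDX58 was at 7.04, 6.73, 15.7 and 6.33 CPM in Angus and 22.97, 12.04, 27.2 and 25.4 CPM in Holstein, so that Angus animal 3 was above Holstein animal 2 (log2 difference 1.29 ± 0.35, FDR = 0.00523).

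Not every interferon gene followed. ISG15, a ubiquitin-like modifier, was at 3.12, 3.14, 14.9 and 0.864 CPM in Angus and 26.1, 3.65, 22.4 and 27.2 CPM in Holstein and did not pass (log2 difference 1.85 ± 0.79, FDR = 0.104). OAS1, a synthetase of the RNase L activator, was at 2.37, 3.75, 39.7 and 0.469 CPM in Angus and 54.7, 19.7, 55.7 and 56.6 CPM in Holstein (log2 difference 2.01 ± 1.0, FDR = 0.175), and OAS2, whose row overlaps it, at 0.267, 0.394, 4.49 and 0.0732 CPM in Angus and 7.67, 2.099, 6.84 and 7.59 CPM in Holstein (log2 difference 2.21 ± 0.99, FDR = 0.126). MX1 was at 6.76, 19.8, 58.2 and 6.37 CPM in Angus and 78.7, 13.3, 23.7 and 82.96 CPM in Holstein (log2 difference 1.12 ± 0.77, FDR = 0.34). In each of these, Angus animal 3 was high and Holstein animal 2 low, so the breeds overlapped. Over the whole list, the median log2 distance from the mean of the 8 samples was -0.46, -0.38, 0.05 and -0.65 in Angus and 0.46, 0.07, 0.46 and 0.58 in Holstein. Holstein animal 2 thus had the least of the interferon set in its breed while it had the most IL8, CCL2, CCL20, NFKBIA and TNFAIP3. For chemokines the same distances were -0.81, -0.57, 0.22 and -1.96 in Angus and 0.62, 1.51, 0.51 and 0.88 in Holstein.

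IRF7, which drives interferon-alpha genes, was at 3.11, 3.17, 8.61 and 3.09 CPM in Angus and 17.1, 5.27, 12.4 and 14.5 CPM in Holstein (log2 difference 1.45 ± 0.44, FDR = 0.0134, lost without Angus 1, 2 or 4 or Holstein 1 or 4 at 1.25 to 1.36). IRF9, the DNA-binding part of the factor ISGF3, was at 6.45, 7.42, 16.6 and 5.21 CPM in Angus and 26.8, 11.6, 24.8 and 25.4 CPM in Holstein (log2 difference 1.31 ± 0.39, FDR = 0.0119, lost without Angus 1, 2 or 4 or Holstein 4 at 1.12 to 1.24). Both overlapped between the breeds and were past the threshold by the likelihood-ratio test but not by the F test (FDR = 0.0615 and 0.059). IRF5, an activator of inflammatory cytokine genes, was at 0.615 to 2.002 CPM across Angus and 2.48 to 3.19 CPM across Holstein animals without overlap (log2 difference 1.37 ± 0.36, FDR = 0.00311). Those were the 3 members past the threshold of 22 IRF, STAT and SOCS genes. TRIM21, an intracellular antibody receptor, was at 3.501 to 5.47 CPM across Angus and 8.38 to 9.65 CPM across Holstein animals (log2 difference 1.01 ± 0.18, lost without Angus 1 or 4 or Holstein 1 or 4 at 0.9 to 0.99), and RNF125, a ubiquitin ligase that removes RIG-I, at 2.53 to 4.31 CPM across Angus and 5.08 to 9.56 CPM across Holstein animals (log2 difference 1.14 ± 0.26). Of 20 immunoproteasome and class I antigen processing genes, none was past the threshold, and the median was 0.24. PSMB10, a catalytic subunit of the immunoproteasome, had 8.17 to 16.1 CPM across Angus and 16.97 to 20.5 CPM across Holstein animals (log2 difference 0.6 ± 0.2, FDR = 0.0263, not past the threshold).

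**Figure D3:**
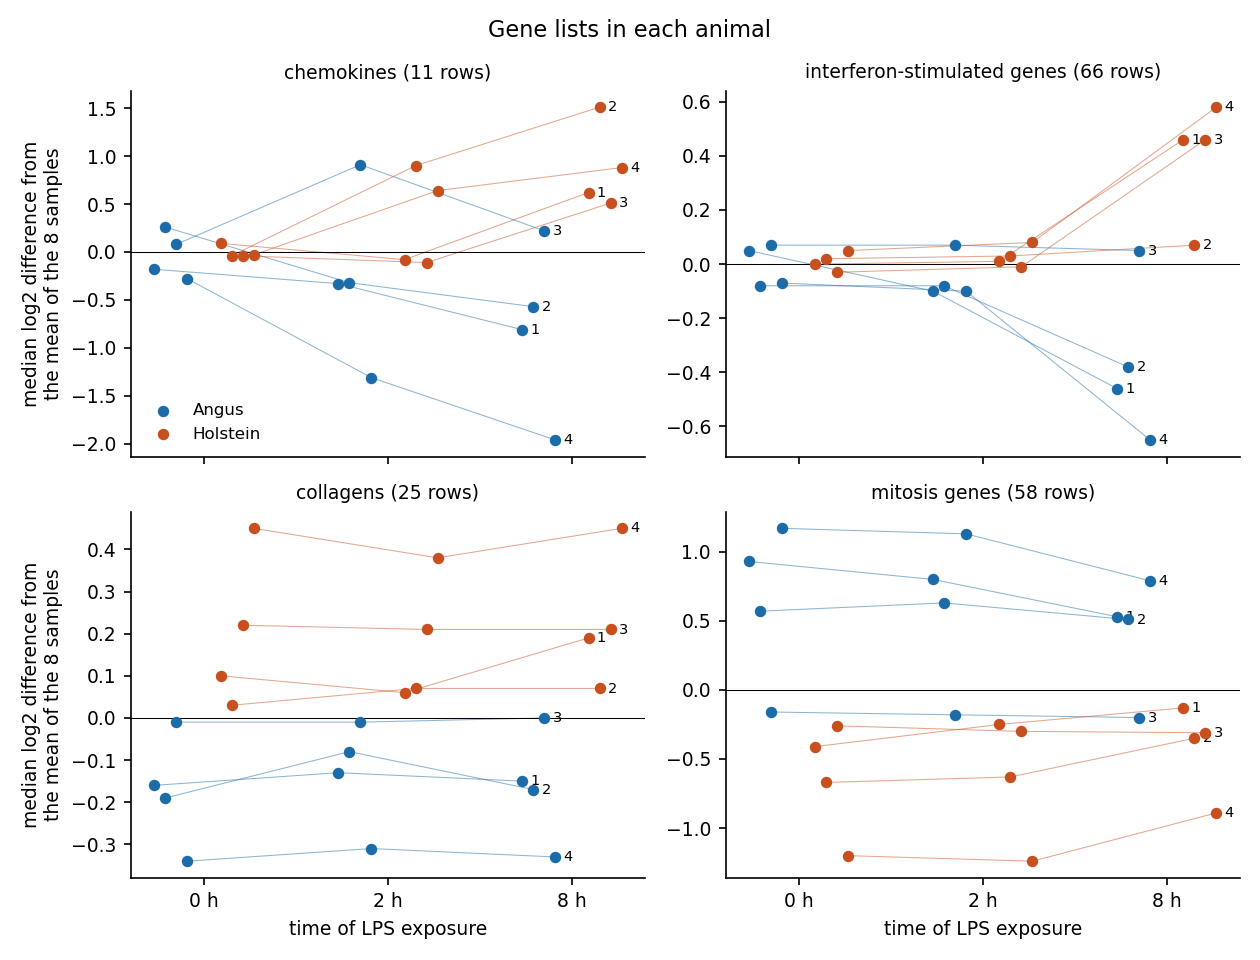
Median over the tested members of 4 lists of the log2 distance from the mean of the 8 samples of each hour, with 1 line per animal and the animal numbers at 8 h. The interferon list lay between -0.1 and 0.08 in all animals at 0 h and 2 h and spread to between -0.65 and 0.58 at 8 h, while the mitosis list was lower in every Holstein animal than in Angus animals 1, 2 and 4 at 8 h.

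Surface molecules that leukocytes meet were higher in Holstein for 7 of 20 adhesion and co-stimulatory genes, and none was lower (median 0.69). CD200, a ligand that restrains myeloid cells, was at 0.347, 0.437, 1.07 and 0.234 CPM in Angus and 5.75, 2.32, 9.61 and 9.85 CPM in Holstein (log2 difference 3.71 ± 0.55, FDR = 1.61e-07). ICOSLG, the ligand of the T cell co-stimulator ICOS, was at 0.2, 0.972, 0.176 and 0.0586 CPM in Angus and 2.31, 5.49, 2.39 and 3.53 CPM in Holstein (log2 difference 3.28 ± 0.69, FDR = 0.000494). ICAM1, the ligand of leukocyte integrins, was at 2.44, 5.07, 6.58 and 2.96 CPM in Angus and 8.99, 17.4, 11.1 and 13.2 CPM in Holstein, without overlap (log2 difference 1.57 ± 0.34, FDR = 0.000295). TNFSF18 and TNFSF4, which encode GITR ligand and OX40 ligand and lie on chromosome 16, were at 9.19 to 23.5 CPM across Angus and 39.4 to 132 CPM across Holstein animals (log2 difference 2.36 ± 0.38) and 0.352 to 1.01 CPM across Angus and 1.23 to 2.498 CPM across Holstein animals (log2 difference 1.41 ± 0.39, lost without Holstein 3 at 1.11). CD40, a receptor by which T cells activate their partners, was at 15.8 to 35.5 CPM across Angus and 39.3 to 57.4 CPM across Holstein animals (log2 difference 1.04 ± 0.24, lost without Angus 2 or 4 or Holstein 2 at 0.88 to 0.98). HAVCR2, which encodes TIM-3, was at 0.845 to 0.894 CPM across Angus and 1.103 to 2.84 CPM across Holstein animals (log2 difference 1.27 ± 0.3). In the TNF superfamily as a whole, 4 of 18 were higher and 1 lower, the latter being TNFRSF6B, a decoy receptor for FAS ligand, at 14.7 to 41.995 CPM across Angus and 7.08 to 20.5 CPM across Holstein animals, which the F test did not keep (log2 difference -1.05 ± 0.38, FDR = 0.0438, lost without Angus 1 or 4 or Holstein 2, 3 or 4 at -0.7 to -1.13). TNFRSF25, a receptor with a death domain, was at 0.935 to 2.24 CPM across Angus and 3.14 to 4.46 CPM across Holstein animals (log2 difference 1.21 ± 0.28).

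Of 21 complement genes, 2 were higher and 1 lower. The higher members were 1 without Angus animal 4 or Holstein animal 4 and 8 without Angus animal 3. C3, the central component of the cascade, was at 3.61, 4.41, 5.06 and 3.11 CPM in Angus and 6.59, 10.3, 6.87 and 11.2 CPM in Holstein (log2 difference 1.11 ± 0.24, FDR = 0.000322, lost without Angus 4 or Holstein 4 at 0.96 to 0.99). The lower member was C1QTNF2, a C1q-related secreted protein that is not itself a component of the cascade. It was at 1.34 to 2.31 CPM across Angus and 0.603 to 1.19 CPM across Holstein animals (log2 difference -1.0 ± 0.29, lost without Angus 1 or 4 or Holstein 3 or 4 at -0.86 to -0.95). None of the 3 acute-phase genes tested was past the threshold. SAA3, a serum amyloid A made by connective tissue, was at 0.8802, 4.58, 9.44 and 0.0586 CPM in Angus and 14.1, 14.9, 6.36 and 12.6 CPM in Holstein (log2 difference 1.68 ± 0.96, FDR = 0.245), and members of the serum amyloid family are too alike for a count to be assigned with certainty. PTX3, a pentraxin that binds microbes, was at 1.03, 6.44, 16.1 and 0.601 CPM in Angus and 15.9, 26.2, 6.702 and 18.5 CPM in Holstein (log2 difference 1.47 ± 0.85, FDR = 0.246). For both, Angus animals 1 and 4 were low and Angus animals 2 and 3 within or near the Holstein range. A few more genes are given that belong to none of these counts and were chosen after their values were seen. OLR1, a receptor for oxidised lipoprotein, was at 23.9, 47.97, 96.4 and 15.4 CPM in Angus and 189, 279, 134 and 308 CPM in Holstein (log2 difference 2.31 ± 0.52, FDR = 0.000783). TNFAIP2, on an unplaced scaffold, was at 0.483 to 1.73 CPM across Angus and 2.38 to 3.62 CPM across Holstein animals (log2 difference 1.82 ± 0.41), and TNFAIP6, a hyaluronan-binding protein of inflamed tissue, at 4.75 to 8.73 CPM across Angus and 11.03 to 18.7 CPM across Holstein animals (log2 difference 1.05 ± 0.26, lost without Angus 1 or 4 or Holstein 2 at 0.86 to 0.92).

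Of 25 immediate-early transcription factors, only FOSL1, an AP-1 subunit, was past the threshold, lower in Holstein at 111, 69.7, 72.6 and 98.2 CPM in Angus and 48.97, 42.2, 38.4 and 39.4 CPM in Holstein (log2 difference -1.06 ± 0.17, FDR = 3.53e-07, lost without Angus 1 at -0.93). DUSP5, a nuclear phosphatase of ERK, was the only 1 of 20 phosphatases and Sprouty genes past it, at 1.51 to 3.24 CPM across Angus and 0.665 to 1.35 CPM across Holstein animals (log2 difference -1.14 ± 0.34, lost without Angus 1 or Holstein 2 at -0.86 to -1.0). No member of 10 RNA-decay regulators passed. ZC3H12A, which degrades cytokine transcripts, was at 6.04 to 15.95 CPM across Angus and 15.2 to 26.3 CPM across Holstein animals (log2 difference 0.92 ± 0.29, FDR = 0.016, not past the threshold). In the prostaglandin list, 2 of 14 were lower and none higher. PTGS1, the constitutive cyclooxygenase, was at 81.3, 26.4, 92.3 and 78.2 CPM in Angus and 20.6, 12.5, 20.9 and 26.8 CPM in Holstein, so that Angus animal 2 alone fell within the Holstein range (log2 difference -1.78 ± 0.37, FDR = 0.000159). HPGD, which inactivates prostaglandins, was at 17.9 to 59.9 CPM across Angus and 10.1 to 16.5 CPM across Holstein animals (log2 difference -1.45 ± 0.34).

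Among 29 antioxidant and nitric oxide genes, 1 was higher and 2 lower in Holstein. GPX3, a secreted glutathione peroxidase, was at 3.96, 6.56, 12.2 and 2.83 CPM in Angus and 33.6, 26.3, 15.6 and 34.4 CPM in Holstein (log2 difference 2.1 ± 0.44, FDR = 0.000209). HMOX1, the inducible heme oxygenase, was at 27.8, 23.9, 34.9 and 24.96 CPM in Angus and 12.9, 12.4, 9.08 and 14.5 CPM in Holstein (log2 difference -1.19 ± 0.18, FDR = 3.3e-08). SOD3, the extracellular superoxide dismutase, was at 1.52 to 6.67 CPM across Angus and 0.5998 to 1.75 CPM across Holstein animals, with overlap (log2 difference -1.82 ± 0.49, FDR = 0.00496). CYBA, a membrane subunit of the phagocyte oxidase and of other NADPH oxidases, was at 9.65 to 20.03 CPM across Angus and 22.6 to 32.2 CPM across Holstein animals (log2 difference 1.01 ± 0.26, lost without Angus 1 or 4 or Holstein 1, 2 or 4 at 0.85 to 0.98). GPX3 ends 538 bases from TNIP1 on chromosome 7.

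Genes of blood clotting were not examined as a list. Of those given here, F3 was named by rule, and THBD, PROS1 and GAS6 were chosen after their values were seen. F3 encodes tissue factor, the trigger of coagulation. It was at 179, 96.01, 70.7 and 184 CPM in Angus and 33.4, 22.8, 15.4 and 14.95 CPM in Holstein. Every Holstein level was below every Angus level (log2 difference -2.61 ± 0.36, FDR = 5.83e-09). THBD, the thrombin receptor that activates protein C, was at 57.9, 29.1, 27.5 and 40.5 CPM in Angus and 10.7, 9.86, 11.5 and 11.9 CPM in Holstein (log2 difference -1.82 ± 0.23, FDR = 4.48e-11). PROS1, the cofactor of protein C, was at 23.9, 80.7, 101 and 21.5 CPM in Angus and 108, 188, 155 and 159 CPM in Holstein in the opposite direction, but the F test did not keep it (log2 difference 1.42 ± 0.48, FDR = 0.0282, lost without Angus 1 or 4 or Holstein 2, 3 or 4 at 1.14 to 1.4). GAS6, a relative of PROS1 and the ligand of TAM receptors, was at 1.05 to 1.903 CPM across Angus and 4.16 to 8.26 CPM across Holstein animals (log2 difference 1.93 ± 0.29).

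**Figure D4:**
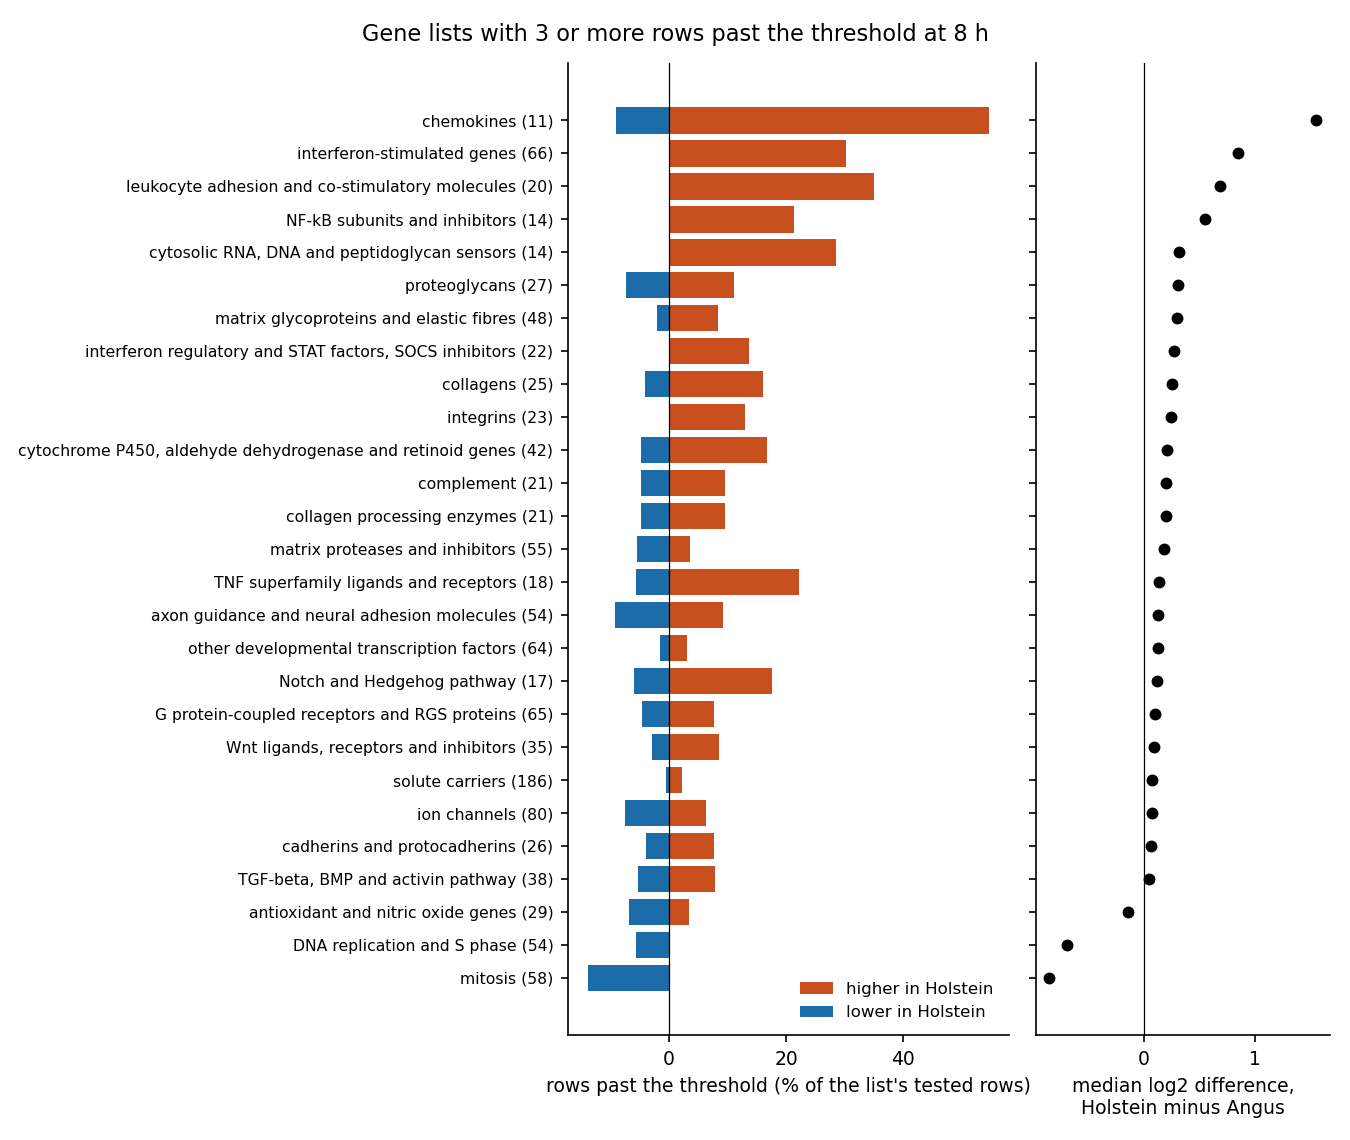
Gene lists with 3 or more members past the threshold at 8 h, with the number of tested members in brackets: left, the share of tested members higher (orange) or lower (blue) in Holstein; right, the median log2 difference. Chemokines and interferon-stimulated genes lie at the top with medians of 1.55 and 0.85, and DNA replication and mitosis at the bottom with -0.69 and -0.85.

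The extracellular matrix differed in a few components, among them some of the most abundant transcripts. FN1, which encodes fibronectin, was at 4939, 8535, 8159.8 and 7084 CPM in Angus and 13191, 16386, 18764 and 15907 CPM in Holstein, with all Holstein animals above all Angus animals (log2 difference 1.16 ± 0.19, FDR = 2.41e-07). COL4A1 and COL4A2, the chains of basement membrane collagen, lie next to each other on chromosome 12 and were at 918, 1235, 1132 and 799 CPM in Angus and 2071, 2164, 2567 and 2089 CPM in Holstein (log2 difference 1.12 ± 0.16, FDR = 1.22e-09) and 227 to 367 CPM across Angus and 603 to 761 CPM across Holstein animals (log2 difference 1.21 ± 0.17). COL11A1, a fibril-nucleating collagen, was at 156, 454, 419.6 and 164 CPM in Angus and 738, 1019.7, 1239.8 and 1185 CPM in Holstein (log2 difference 1.81 ± 0.37, FDR = 0.000138). In all, 4 of 25 collagens were higher and 1 lower, and the list's median was 0.25. The main dermal collagens did not pass. COL1A1 was at 5650.1 to 9090.0 CPM across Angus and 7450.5 to 10122 CPM across Holstein animals (log2 difference 0.23 ± 0.17, FDR = 0.38, not past the threshold), and COL3A1 at 8120.5 to 19523 CPM across Angus and 23388 to 30072 CPM across Holstein animals, without overlap but just under a 2-fold difference (log2 difference 0.95 ± 0.24, FDR = 0.00246). COL13A1, a transmembrane collagen, was lower at 1.25 to 3.04 CPM across Angus and 0.1902 to 1.07 CPM across Holstein animals (log2 difference -1.99 ± 0.52, lost without Angus 1 at -1.69).

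Proteoglycans and glycoproteins ran in both directions. ACAN, the large cartilage proteoglycan, was at 5.53, 25.3, 15.5 and 4.92 CPM in Angus and 118, 87.5, 38.3 and 24.1 CPM in Holstein, with Angus animal 2 above Holstein animal 4 (log2 difference 2.39 ± 0.61, FDR = 0.00369), and AGRN, which encodes agrin, at 0.454 to 1.595 CPM across Angus and 4.24 to 5.29 CPM across Holstein animals (log2 difference 2.26 ± 0.36). ESM1, an endothelial proteoglycan, was at 161, 73.9, 43.003 and 185 CPM in Angus and 26.1, 32.1, 35.2 and 32.6 CPM in Holstein (log2 difference -1.88 ± 0.4, FDR = 0.000274), and SPOCK1, a testican, at 9.06 to 27.7 CPM across Angus and 3.23 to 9.23 CPM across Holstein animals (log2 difference -1.33 ± 0.39, lost without Angus 1 at -1.01). Of 27 proteoglycans, 3 were higher and 2 lower. MATN3, a cartilage matrilin, was at 0.0667, 1.901, 3.77 and 0.0586 CPM in Angus and 26.98, 3.39, 29.3 and 11.7 CPM in Holstein, with Angus animal 3 above Holstein animal 2 (log2 difference 3.62 ± 1.09, FDR = 0.0229, lost without Angus 1 or 2 or Holstein 1 or 3 at 3.22 to 3.78). EFEMP1, a fibulin, was at 20.4 to 65.1 CPM across Angus and 55.8 to 122 CPM across Holstein animals (log2 difference 1.19 ± 0.38, lost without Angus 1, 2 or 4 or Holstein 2 or 4 at 0.96 to 1.24). CRISPLD1, a secreted cysteine-rich protein, was at 12.2, 2.99, 2.52 and 19.4 CPM in Angus and 1.69, 2.06, 0.172 and 0.1902 CPM in Holstein (log2 difference -3.17 ± 0.87, FDR = 0.00988, lost without Angus 4 at -2.53). Of 48 glycoproteins, 4 were higher and 1 lower by the likelihood-ratio test, but 1 and 0 by the F test. MGP, an inhibitor of matrix calcification, was at 18.5, 47.1, 54.8 and 20.3 CPM in Angus and 102, 202, 84.4 and 169 CPM in Holstein (log2 difference 1.99 ± 0.41, FDR = 0.000175).

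Enzymes and receptors of the matrix added a few calls. LOXL3, a collagen cross-linking oxidase, was at 4.48 to 11.2 CPM across Angus and 18.04 to 29.04 CPM across Holstein animals (log2 difference 1.57 ± 0.29), P4HA3, a collagen prolyl hydroxylase, at 3.99 to 8.13 CPM across Angus and 8.29 to 17.4 CPM across Holstein animals (log2 difference 1.17 ± 0.31), and PCOLCE2, an enhancer of procollagen cleavage, at 6.14 to 16.7 CPM across Angus and 4.66 to 5.92 CPM across Holstein animals (log2 difference -1.18 ± 0.32, lost without Angus 1 or 4 at -0.97 to -0.99). ITGA11 and ITGA2, both collagen-binding integrin chains, were at 40.6 to 112 CPM across Angus and 152 to 326 CPM across Holstein animals (log2 difference 1.59 ± 0.33) and 1.201 to 2.01 CPM across Angus and 3.01 to 5.65 CPM across Holstein animals (log2 difference 1.53 ± 0.28). ITGBL1, an integrin-like secreted protein, was at 4.96 to 15.1 CPM across Angus and 19.3 to 26.3 CPM across Holstein animals (log2 difference 1.23 ± 0.29). MMP15, a membrane metalloproteinase, was at 0.439 to 1.54 CPM across Angus and 1.55 to 2.56 CPM across Holstein animals (log2 difference 1.33 ± 0.37), and MMP27 at 2.85 to 5.14 CPM across Angus and 0.569 to 2.12 CPM across Holstein animals (log2 difference -1.58 ± 0.44). ADAMTSL1, a matrix protein without protease activity, is split over several rows, and a pair of them was past the threshold. Both of these were lower, at 2.24 to 4.76 CPM across Angus and 0.287 to 1.56 CPM across Holstein animals (log2 difference -2.39 ± 0.56) and 10.2 to 16.1 CPM across Angus and 3.02 to 5.22 CPM across Holstein animals (log2 difference -1.76 ± 0.24). TGM2, the transglutaminase that cross-links matrix proteins and an NF-kB target, had the smallest FDR of the higher genes named by rule, at 0.2, 0.268, 0.363 and 0.234 CPM in Angus and 1.76, 3.12, 1.96 and 2.08 CPM in Holstein. It was under 1 CPM in every Angus animal and above it in every Holstein animal (log2 difference 3.05 ± 0.3, FDR = 7.65e-20). Of 24 contractile genes only SYNPO2, an actin-bundling protein, was past the threshold, at 59.3 to 171 CPM across Angus and 252 to 355 CPM across Holstein animals (log2 difference 1.33 ± 0.34), and ACTA2, smooth muscle actin, was at 2891 to 4772 CPM across Angus and 4034 to 5557 CPM across Holstein animals (log2 difference 0.48 ± 0.19, FDR = 0.065, not past the threshold).

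In the TGF-beta and BMP list, 3 of 38 were higher and 2 lower. TGFB2, a TGF-beta ligand, was at 11.9, 32.8, 18.2 and 10.99 CPM in Angus and 54.6, 58.7, 56.9 and 57.2 CPM in Holstein (log2 difference 1.62 ± 0.32, FDR = 4.75e-05). INHBA, the subunit of activin A, was at 14.1, 21.6, 23.9 and 12.2 CPM in Angus and 43.96, 59.6, 53.8 and 57.9 CPM in Holstein (log2 difference 1.58 ± 0.22, FDR = 2.16e-09). CHRD, which encodes the BMP antagonist chordin, was at 1.597 to 4.08 CPM across Angus and 6.12 to 8.09 CPM across Holstein animals (log2 difference 1.32 ± 0.3). ID1, a BMP target, was lower at 55.7 to 73.9 CPM across Angus and 19.4 to 35.8 CPM across Holstein animals (log2 difference -1.24 ± 0.21), as was GREM1, another BMP antagonist, at 77.8 to 153 CPM across Angus and 34.9 to 65.02 CPM across Holstein animals (log2 difference -1.22 ± 0.26). IGFBP3 and IGFBP7, which bind insulin-like growth factors, were higher at 28.98 to 49.01 CPM across Angus and 44.8 to 165 CPM across Holstein animals (log2 difference 1.15 ± 0.36, lost without Angus 1 or 4 or Holstein 2 at 0.69 to 1.17) and at 3.43 to 18.2 CPM across Angus and 19.4 to 63.6 CPM across Holstein animals (log2 difference 1.94 ± 0.53), though the F test kept neither (FDR = 0.0661 and 0.0511). None of 36 genes of the FGF, EGF, PDGF, HGF and VEGF family was past the threshold. MET, the HGF receptor, came near it at 23.3 to 33.4 CPM across Angus and 10.6 to 17.5 CPM across Holstein animals (log2 difference -0.95 ± 0.18, FDR = 1.41e-05, not past the threshold).

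Notch and Wnt genes were higher at several points. HEYL, a Notch target repressor, was at 0.0667, 1.62, 0.396 and 0.0732 CPM in Angus and 7.21, 10.9, 5.38 and 3.96 CPM in Holstein (log2 difference 3.67 ± 0.85, FDR = 0.00211). HES4, of the same target class, was at 0.103 to 0.732 CPM across Angus and 1.89 to 3.35 CPM across Holstein animals (log2 difference 2.91 ± 0.52), and JAG1, a Notch ligand, at 83.4, 220.3, 119 and 97.9 CPM in Angus and 332, 302, 329 and 238 CPM in Holstein (log2 difference 1.21 ± 0.29, FDR = 0.00113). Together with GLI1, the Hedgehog target, which was lower at 1.27 to 4.47 CPM across Angus and 0.652 to 1.14 CPM across Holstein animals (log2 difference -1.53 ± 0.37), these were the 4 past the threshold of 17 genes. WNT10B and WNT2, both Wnt ligands, were at 0.645 to 1.82 CPM across Angus and 2.34 to 3.89 CPM across Holstein animals (log2 difference 1.5 ± 0.33) and 0.967 to 3.498 CPM across Angus and 4.58 to 5.56 CPM across Holstein animals (log2 difference 1.39 ± 0.35). TCF7, a Wnt effector, was at 5.001 to 11.02 CPM across Angus and 12.97 to 21.9 CPM across Holstein animals (log2 difference 1.15 ± 0.28, lost without Angus 1 or Holstein 4 at 0.98 to 0.99). DKK2, a Wnt antagonist, was lower at 6.49 to 21.2 CPM across Angus and 1.51 to 3.81 CPM across Holstein animals (log2 difference -2.02 ± 0.4). Of 35 Wnt genes 3 were thus higher and 1 lower.

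In the list of cytochrome P450, aldehyde dehydrogenase and retinoid genes, 7 of 42 were higher and 2 lower, and the higher members numbered 4 without Angus animal 1 or 4 or Holstein animal 2 or 3, 3 without Holstein animal 4 and 12 without Angus animal 3. STRA6, the receptor that takes up retinol, was at 1.92, 1.37, 1.804 and 0.542 CPM in Angus and 12.7, 22.7, 7.201 and 8.54 CPM in Holstein (log2 difference 3.18 ± 0.45, FDR = 2.5e-08). At 0 h its mean had been 0.113 CPM in Angus and 0.549 CPM in Holstein. RDH10, which oxidises retinol, was at 13.003 to 31.8 CPM across Angus and 52.1 to 89.4 CPM across Holstein animals (log2 difference 1.62 ± 0.31). ALDH1A3, which makes retinoic acid, was at 30.5 to 117 CPM across Angus and 111 to 233 CPM across Holstein animals (log2 difference 1.14 ± 0.41, lost without Angus 1 or 4 or Holstein 2, 3 or 4 at 0.87 to 1.21), and RARB, a retinoic acid receptor and target, at 0.161 to 0.836 CPM across Angus and 1.34 to 2.14 CPM across Holstein animals (log2 difference 1.71 ± 0.49). RARRES2, a retinoid-responsive gene that encodes chemerin, was at 2.197 to 7.85 CPM across Angus and 7.03 to 12.7 CPM across Holstein animals (log2 difference 1.14 ± 0.37, lost without Angus 1, 2 or 4 or Holstein 1, 2 or 4 at 0.91 to 1.17). CYP26B1, which breaks retinoic acid down, was lower at 17.8 to 49.1 CPM across Angus and 8.91 to 14.6 CPM across Holstein animals (log2 difference -1.3 ± 0.3, lost without Angus 4 at -0.98). The F test kept 4 of the 7 higher and both lower members, and it did not keep ALDH1A3 (FDR = 0.095) or RARRES2 (FDR = 0.0659). CYP7B1, an oxysterol hydroxylase, was at 2.43 to 7.61 CPM across Angus and 7.92 to 16.96 CPM across Holstein animals (log2 difference 1.34 ± 0.36). ABCA1, the cholesterol exporter, was at 1.31, 4.52, 4.22 and 1.08 CPM in Angus and 8.77, 14.02, 6.48 and 20.6 CPM in Holstein (log2 difference 2.16 ± 0.53, FDR = 0.00198) and was the only 1 past the threshold of 33 cholesterol and fatty acid genes.

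Guidance, adhesion and signalling molecules of the nervous system were seen in both directions, 5 of 54 higher and 5 lower. ISLR2, a leucine-rich repeat membrane protein, was at 0.333, 0.493, 0.495 and 0.0879 CPM in Angus and 5.11, 3.77, 1.602 and 3.14 CPM in Holstein (log2 difference 3.26 ± 0.49, FDR = 1.37e-07). It lies 48380 bases from STRA6 on chromosome 21, and ISLR, the gene between them, was at 2.09 to 2.82 CPM across Angus and 2.02 to 3.401 CPM across Holstein animals (log2 difference 0.22 ± 0.23, FDR = 0.56, not past the threshold). UNC5B, a netrin receptor, was at 1.86 to 3.61 CPM across Angus and 8.097 to 15.2 CPM across Holstein animals (log2 difference 2.04 ± 0.29), and SEMA5A and SEMA5B, both semaphorins, at 0.557 to 2.79 CPM across Angus and 3.62 to 5.33 CPM across Holstein animals (log2 difference 1.71 ± 0.43) and 6.36 to 14.4 CPM across Angus and 27.6 to 32.9 CPM across Holstein animals (log2 difference 1.81 ± 0.26). Lower members were EFNB2, LRRN3, EPHB2, EPHB4 and ROBO2. The desmosomal cadherins DSC2 and DSC3, neighbours on chromosome 24, were at 1.32, 5.48, 6.89 and 0.117 CPM in Angus and 31.01, 14.1, 19.2 and 29.7 CPM in Holstein (log2 difference 2.77 ± 0.83, FDR = 0.0172, lost without Angus 1 or Holstein 4 at 2.49 to 2.63) and 5.08, 16.3, 25.2 and 0.513 CPM in Angus and 94.9, 28.2, 51.3 and 71.6 CPM in Holstein (log2 difference 2.39 ± 0.82, FDR = 0.0395, lost without Angus 1 or 2 or Holstein 1, 3 or 4 at 2.1 to 2.58), and the F test kept neither. KRT5 and KRT14, keratins of basal epidermis, reached 10.7 and 2.88 CPM in Holstein animal 1, which also had the most DSC2 and DSC3, and were at or under 0.482 CPM in the other animals. Their part in the desmosomal result was not tested.

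Channels, transporters and receptors included several of the genes most lowered in Holstein. SLC32A1, the vesicular transporter of inhibitory amino acids, was at 5.81, 1.704, 1.35 and 1.71 CPM in Angus and 0.146, 0.0913, 0.103 and 0.201 CPM in Holstein (log2 difference -4.26 ± 0.54, FDR = 4.11e-10). KCNG1, a modifier subunit of potassium channels, was at 7.19, 1.65, 1.19 and 1.93 CPM in Angus and 0.437, 0.183, 0.3101 and 0.317 CPM in Holstein (log2 difference -3.25 ± 0.58, FDR = 1.67e-05). SCN1A and SCN9A, sodium channel genes in a cluster on chromosome 2, were at 3.01 to 6.77 CPM across Angus and 0.644 to 1.76 CPM across Holstein animals (log2 difference -2.02 ± 0.38) and 4.796 to 7.87 CPM across Angus and 1.07 to 3.23 CPM across Holstein animals (log2 difference -1.82 ± 0.37), whereas CACNA1A, a calcium channel, was higher at 4.94 to 21.98 CPM across Angus and 24.4 to 57.8 CPM across Holstein animals (log2 difference 1.78 ± 0.45). Of 80 ion channels 5 were higher and 6 lower (6.25% and 7.5%), and of 186 solute carriers 4 were higher and 1 lower (2.15% and 0.538%). Among all tested rows with a symbol the shares were 2.41% and 1.05%, so the solute carriers did not exceed them. SLC6A6, the taurine transporter, was at 1.41, 5.89, 2.98 and 0.542 CPM in Angus and 12.8, 18.01, 13.8 and 12.6 CPM in Holstein (log2 difference 2.4 ± 0.57, FDR = 0.00155). BDKRB1, the inducible bradykinin receptor, was at 0.967 to 6.72 CPM across Angus and 7.92 to 14.5 CPM across Holstein animals (log2 difference 1.54 ± 0.47, lost without Angus 1 or Holstein 2 at 1.39 to 1.49), which the F test did not keep (FDR = 0.0614).

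ASIP, which encodes the agouti signal that blocks the melanocortin 1 receptor, had the smallest FDR among the lower genes, at 21.3, 37.4, 37.6 and 34.1 CPM in Angus and 1.33, 1.83, 3.53 and 3.096 CPM in Holstein (log2 difference -3.74 ± 0.31, FDR = 9.24e-23). Its covered bases per count differed by 1.53 times between the 8 samples, where the median over rows was 1.03, and its part in the difference was not tested. It was the only 1 of 8 melanocortin and pigment genes past the threshold. ADM, a vasodilator peptide induced by hypoxia, was lower at 63.4, 56.6, 85.5 and 48.1 CPM in Angus and 33.1, 24.5, 18.8 and 27.5 CPM in Holstein (log2 difference -1.29 ± 0.22, FDR = 1.25e-06), and ALDOC, a glycolytic aldolase, higher at 4.36 to 15.9 CPM across Angus and 19.7 to 24.7 CPM across Holstein animals (log2 difference 1.39 ± 0.38). COLEC12, a scavenger receptor, was at 7.13 to 14.9 CPM across Angus and 1.58 to 3.899 CPM across Holstein animals (log2 difference -2.19 ± 0.35). FBP1, of gluconeogenesis, was at 1.42 to 3.79 CPM across Angus and 0.296 to 0.593 CPM across Holstein animals (log2 difference -2.74 ± 0.37). MEGF6, a secreted protein of EGF repeats, was at 54.3 to 162 CPM across Angus and 9.28 to 26.3 CPM across Holstein animals (log2 difference -2.54 ± 0.39). CTSL1, a lysosomal protease, was at 3.78 to 5.95 CPM across Angus and 0.362 to 2.25 CPM across Holstein animals (log2 difference -1.6 ± 0.44). Of the remaining genes with the largest differences, AFAP1L2, an adaptor of SRC signalling, was at 0.0934 to 0.563 CPM across Angus and 2.14 to 5.03 CPM across Holstein animals (log2 difference 3.66 ± 0.53), and MAPK13, a p38 kinase, at 0 to 0.6901 CPM across Angus and 1.76 to 3.02 CPM across Holstein animals (log2 difference 2.88 ± 0.87, lost without Angus 4 at 2.57). FAM131B was at 0.132 to 0.915 CPM across Angus and 3.16 to 4.41 CPM across Holstein animals (log2 difference 2.78 ± 0.42), ANKRD24 at 3.93 to 10.3 CPM across Angus and 0.465 to 1.38 CPM across Holstein animals (log2 difference -3.2 ± 0.41), ARHGAP18, a GTPase-activating protein, at 10.04 to 31.2 CPM across Angus and 4.06 to 4.88 CPM across Holstein animals (log2 difference -2.11 ± 0.35), NLGN4Y on the X chromosome at 2.26 to 8.495 CPM across Angus and 0.509 to 0.915 CPM across Holstein animals (log2 difference -2.88 ± 0.47), and CXHXorf57 at 5.699 to 20.7 CPM across Angus and 1.47 to 4.31 CPM across Holstein animals (log2 difference -2.08 ± 0.44).

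Further lists held few differing members. In the list of 64 developmental transcription factors, NKX2-2 was higher at 0.773 to 1.55 CPM across Angus and 1.79 to 3.83 CPM across Holstein animals (log2 difference 1.36 ± 0.32). ENC1, which the list holds although it does not encode a transcription factor, was also higher. It was at 53.2 to 109.9 CPM across Angus and 159 to 220.2 CPM across Holstein animals (log2 difference 1.12 ± 0.22, lost without Angus 1 at 0.94). IRX1 was lower at 6.11 to 9.68 CPM across Angus and 3.08 to 3.86 CPM across Holstein animals (log2 difference -1.11 ± 0.2, lost without Angus 1 at -0.99). Of 65 G protein-coupled receptors and RGS genes, 5 were higher and 3 lower, with 2 higher without Angus animal 1 and 8 without Angus animal 3. Other counts of list members also moved when a sample was left out. The higher members were 5 NF-kB genes, 4 cytokines, 9 glycoproteins, 4 prostaglandin genes and 8 solute carriers without Angus animal 3. Without Angus animal 4 they were 1, 1, 2, 0 and 2. The 7 adhesion and co-stimulatory genes became 4 without Holstein animal 2 or 3, where 17 could be tested. None of 30 cyclins, CDK inhibitors and p53 targets was past the threshold. In all, 169 of the 453 rows past it belonged to a list, and so most of the differing genes fell outside the functions examined. Several of the genes described overlap another gene row, with which they can share counts, namely HEYL with BMP8B, GLI1 with ARHGAP9, ICAM1 with LOC782799, IGFBP7 with POLR2B, LOXL3 with HTRA2 and TNFRSF6B with RTEL1. Whether the counting used strand was not stated.

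Genes of cell division had negative differences as a group. Of 58 mitosis genes, 57 had a negative difference, 53 of them at an FDR under 0.05, and the median log2 difference was -0.85. A 2-fold difference was reached by 8, and none was higher. This count rested on single animals, with 33 without Angus animal 3, 20 without Holstein animal 1, 14 without Holstein animal 3 and 2 without Angus animal 4 or Holstein animal 4. With libraries scaled by total count alone, 21 reached it. TOP2A, which untangles chromosomes, was at 405, 339, 237 and 536 CPM in Angus and 219, 189, 178 and 119 CPM in Holstein (log2 difference -1.11 ± 0.26, FDR = 0.00105, lost without Angus 4 or Holstein 4 at -0.9 to -0.96). CENPA, the histone of the centromere, was at 74.5, 57.8, 32.9 and 82.7 CPM in Angus and 29.7, 29.7, 28.8 and 16.4 CPM in Holstein (log2 difference -1.25 ± 0.3, FDR = 0.00105). ASPM and MAD2L1, of the spindle and its checkpoint, were at 91.2 to 176 CPM across Angus and 41.3 to 83.1 CPM across Holstein animals (log2 difference -1.13 ± 0.25, lost without Holstein 4 at -0.96) and 28.7 to 70.01 CPM across Angus and 17.9 to 26.8 CPM across Holstein animals (log2 difference -1.13 ± 0.26, lost without Angus 4 at -0.93). MKI67, the proliferation antigen, was at 277, 242, 152 and 334 CPM in Angus and 153, 137, 139.7 and 91.7 CPM in Holstein, just under the fold limit and with Angus animal 3 among the Holstein animals (log2 difference -0.95 ± 0.25, FDR = 0.00287). CCNB1, the mitotic cyclin, was at 67.9 to 129 CPM across Angus and 38.9 to 66.7 CPM across Holstein animals (log2 difference -0.97 ± 0.23, FDR = 0.000809, not past the threshold).

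DNA replication genes showed the same order. All 54 had a negative difference, 40 at an FDR under 0.05, and the median was -0.69. Past the threshold were 3, which became 14 without Angus animal 3, 13 without Holstein animal 1, 5 without Holstein animal 3 and 0 without Angus animal 4. The 3 past the threshold were RRM2, which makes deoxynucleotides, at 297, 283, 149.7 and 365 CPM in Angus and 171, 124, 132 and 108 CPM in Holstein (log2 difference -1.03 ± 0.26, FDR = 0.00193, lost without Angus 1 or 4 or Holstein 2 or 4 at -0.87 to -1.0), and the S phase regulators E2F2, at 1.05 to 2.17 CPM across Angus and 0.391 to 0.905 CPM across Holstein animals (log2 difference -1.48 ± 0.35), and E2F8, at 12.1 to 29.9 CPM across Angus and 6.76 to 12.3 CPM across Holstein animals (log2 difference -1.19 ± 0.28, lost without Angus 4 at -0.96). MCM5, of the replicative helicase, was at 48.9 to 92.8 CPM across Angus and 32.5 to 53.5 CPM across Holstein animals (log2 difference -0.92 ± 0.23, FDR = 0.00164, not past the threshold). Over the mitosis list the median log2 distance from the mean was 0.53, 0.51, -0.20 and 0.79 in Angus and -0.13, -0.35, -0.31 and -0.89 in Holstein. The breeds already differed in this way before LPS, with a median of -1.33 and 51 members past the threshold at 0 h. Whether the difference changed between hours was not tested.

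Regulators of chromatin and housekeeping lists differed in few members. Of 14 DNA methylation genes none was past the threshold. UHRF1, which brings DNMT1 to newly made DNA, was at 68.1, 62.5, 38.6 and 81.2 CPM in Angus and 46.3, 30.7, 27.9 and 23.9 CPM in Holstein (log2 difference -0.96 ± 0.26, FDR = 0.00504), DNMT1, the maintenance methyltransferase, at 36.9 to 61.98 CPM across Angus and 31.03 to 42.7 CPM across Holstein animals (log2 difference -0.56 ± 0.18, FDR = 0.018, not past the threshold), and IDH2 at 56.1 to 74.99 CPM across Angus and 34.5 to 45.2 CPM across Holstein animals (log2 difference -0.74 ± 0.14, FDR = 7.98e-06, not past the threshold). HDAC9, a class II deacetylase, was lower at 9.295, 3.21, 4.24 and 10.02 CPM in Angus and 2.34, 2.803, 2.31 and 1.55 CPM in Holstein (log2 difference -1.57 ± 0.38, FDR = 0.00164), and SIRT3, a mitochondrial deacetylase, just reached the fold limit at 0.894 to 1.97 CPM across Angus and 2.102 to 2.87 CPM across Holstein animals (log2 difference 1.0 ± 0.3, lost without Angus 1, 2 or 4 or Holstein 1 at 0.89 to 0.9). No member was past the threshold among 81 nuclear genes of oxidative phosphorylation, 35 proteasome genes, 310 zinc finger genes, 18 HOX genes and 10 serpins. The 2 HOX genes with the smallest p were HOXC4, at 12.5 to 14.3 CPM across Angus and 8.45 to 10.7 CPM across Holstein animals (log2 difference -0.54 ± 0.13, FDR = 0.000937, not past the threshold), and HOXA9, at 4.93 to 7.09 CPM across Angus and 2.8 to 4.12 CPM across Holstein animals (log2 difference -0.88 ± 0.2, FDR = 0.000518, not past the threshold). HSPB8, a small heat shock protein, was lower at 34.95 to 82.1 CPM across Angus and 17.8 to 26.5 CPM across Holstein animals (log2 difference -1.26 ± 0.26). ARNTL2, a clock factor, was higher at 0.498 to 2.51 CPM across Angus and 3.11 to 7.29 CPM across Holstein animals (log2 difference 1.79 ± 0.48).

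Of 85 ribosomal protein genes 1 was past the threshold, RPL7A, at 844, 797, 791 and 783 CPM in Angus and 729, 117, 209 and 129 CPM in Holstein. Holstein animal 1 stood close to the Angus animals and the other 3 Holstein animals far below (log2 difference -1.44 ± 0.53, FDR = 0.0456, lost without Angus 1, 2, 3 or 4 or Holstein 2, 3 or 4 at -1.17 to -1.46). The F test did not keep it (FDR = 0.105). Covered bases per count in RPL7A differed by 1.78 times between samples, and its row overlaps SURF1 on the other strand. Similar shifts touched 7 of the 292 rows past the threshold that could be checked, with a ratio above 1.5. MEST, an imprinted gene, was one of them, with a ratio of 4.53, and its levels of 0.04001 to 1.93 CPM across Angus and 3.26 to 6.48 CPM across Holstein animals (log2 difference 2.36 ± 0.79, lost without Angus 4 or Holstein 1, 2 or 4 at 2.09 to 2.31) are therefore uncertain. LOC100848478 and LOC613534, which lie within SRPK2 and APBB2, had the Holstein animals 2 to 4 at 144 to 177 and 72.4 to 143 CPM, and Holstein animal 1 and all Angus animals at or under 2.11 and 14.9 CPM. Their differences had the opposite sign at 0 h. PEG10, another imprinted gene, was lower at 6.49 to 14.3 CPM across Angus and 4.38 to 5.89 CPM across Holstein animals (log2 difference -1.08 ± 0.26, lost without Angus 1 or 4 at -0.94 to -0.96).

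Rows past the threshold were spread over the genome, from 0.82% of tested rows on chromosome 23 to 6.4% on chromosome 4. There were 41 neighbouring pairs that lay within 100000 bases without overlap, and 34 of them had the same direction. The share for neighbouring rows in general was not computed, and 69.76% of the rows with a symbol past the threshold were higher. Among the 34 were a pair of ADAMTSL1 rows and a chain of LOC rows on the X chromosome. Whether differing genes cluster was not tested. Only rows past the threshold were paired, so that rows between them that did not pass were left out. On chromosome 18, 5 such rows each lay within 100000 bases of the next. They were PPP1R14A, SPINT2, C18H19orf33, KCNK6 and CATSPERG, all higher in Holstein, with log2 differences of 2.19, 1.57, 2.12, 1.26 and 1.36. AGRN and HES4 lie 12368 bases apart on chromosome 16 and CTSL1 and FBP1 89821 bases apart on chromosome 8. CX3CL1 (chromosome 18, 25464314 to 25476367) and CCL5 (chromosome 19, 14823470 to 14831157) were each followed within 100000 bases by another higher row, DOK4 at 1.32 and MMP28 at 1.10. Positions of further leading genes were chromosome 6, 90559882 to 90563647, for IL8, chromosome 21, 46065546 to 46068942, for NFKBIA, chromosome 1, 143119272 to 143155057, for MX2 and chromosome 3, 49110156 to 49121034, for F3. All positions are on the bovine build UMD v3.1 and cover whole genes, introns included.

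The 8 h differences were set beside those of the same 8 cultures before LPS, which are not independent since the animals are shared. At 0 h, 4.15% of the tested rows with a symbol were past the threshold, 1.98% higher and 2.18% lower in Holstein, and at 2 h 4.75%, with 2.51% higher and 2.24% lower. Of the 316 higher rows, 281 could be tested at 0 h, and 167 of these were past the threshold in the same direction. At 2 h it was 156 of 284. Of the 137 lower rows, 98 of 123 tested were past it at 0 h and 95 of 130 at 2 h. In 3 samples at 0 h, Angus animal 4 and Holstein animals 2 and 4, each COL1A1 count stood for fewer covered bases than in most samples. The same held for Angus animal 3 at 2 h, with 66.9 bases per count. The 2 h comparison was not repeated without that sample, so its counts carry this uncertainty. In a comparison at 0 h without the 3 samples of that hour, 60 of 267 higher and 36 of 124 lower rows tested were past the threshold in the 8 h direction. The 8 h sign was shared by 260 and 123. HEYL, ASIP, CXCL12, F3, FN1 and COL4A1 were past the threshold at both hours, with 0 h differences of 3.19, -3.79, -2.5, -3.17, 1.22 and 1.08. IL8, CCL5, CCL20, CX3CL1, MX2, RSAD2, IFIH1 and ZBP1 were below the expression limit at 0 h, and NFKBIA and BIRC3 were tested there with log2 differences of -0.14 and 0.24, neither past the threshold. CCL2 was at 1.43 there, not past it either. A total of 18 higher rows and 1 lower row were under 1 CPM in all 8 samples at 0 h. HDAC9 had 0.28 at 0 h against -1.57 at 8 h. The change between hours was not tested.

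**Figure D5:**
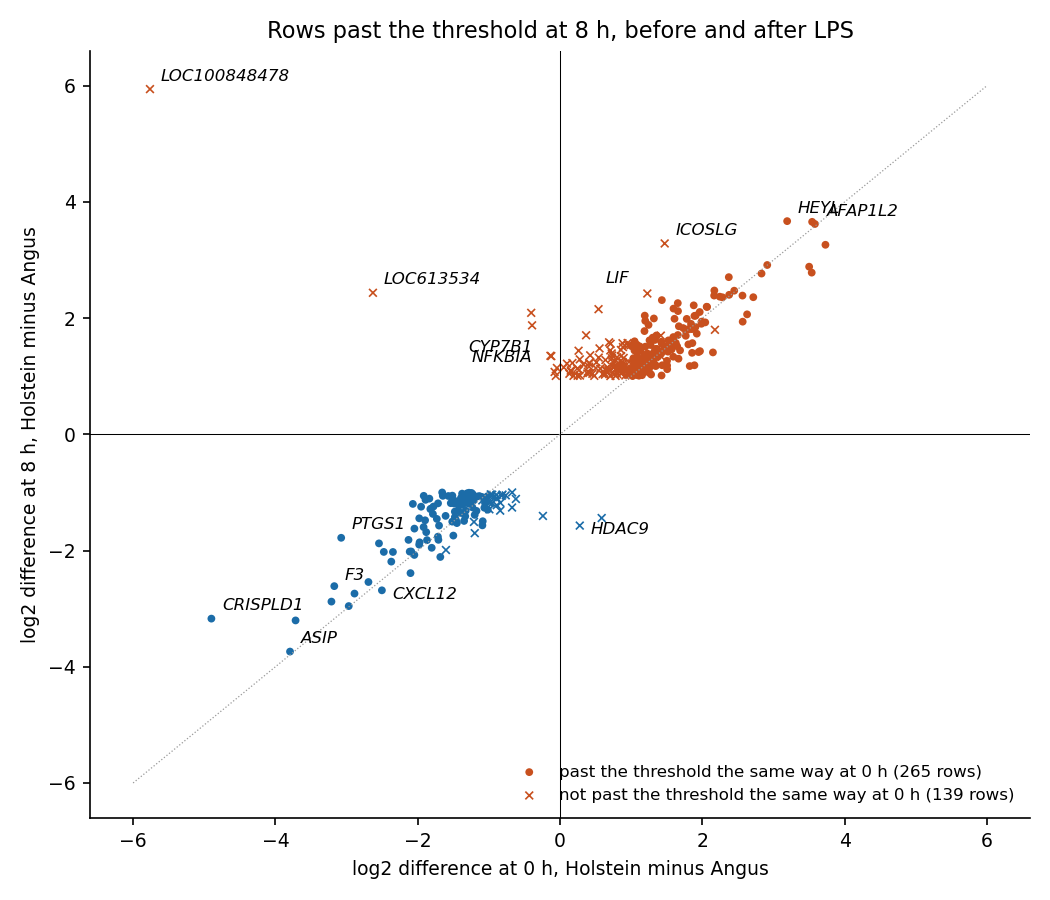
Log2 difference, Holstein minus Angus, at 0 h (horizontal) and 8 h (vertical) of the 404 rows past the threshold at 8 h that could be tested at 0 h, orange where higher and blue where lower at 8 h. Dots (265 rows) were past the threshold in the same direction at 0 h, crosses (139 rows) were not, and IL8, CCL5, CX3CL1 and MX2 are absent because they were not tested at 0 h.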

How the data were processed

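RNA of 24 cultures, 8 animals at 3 hours, was sequenced after poly-A selection. The authors removed reads of low quality, used NextGENe 2.3.4 to align the rest to UMD v3.1, a bovine build, and deposited, per gene row, raw read counts and the mean coverage (CASAVA 1.7 is also named in the submitters' processing notes). A gene row spans the whole gene, introns included, and rows can share reads, with 1.50 to 1.53 counts per matched read at 8 h, so that levels were not compared between genes. The deposited coverage served only to check how reads were counted. Reads per sample, and with them the counting error, are given above.

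The 8 samples at 8 h were fitted in edgeR 4.0.16 (R 4.3.3) with TMM scaling and an unpaired likelihood-ratio test, the test named in the methods of the study. Rows with at least 1 CPM in 4 of 8 samples were tested, the FDR was computed by the Benjamini-Hochberg method over all 20679 of them, and rows with an FDR under 0.05, a 2-fold difference and an average above 1 CPM were past the threshold. Fits within 0 h and 2 h were made in the same way. DESeq2 1.42.0, the F test of edgeR, other scalings and filters, all 24 samples, a replicate block and leaving out each sample were tried. The scripts were tested on simulated data. Animals of a breed were separate cultures, and 12 pairs within groups differed by more than sampling noise.

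Genes were named by rule: without LOC symbols, the 15 largest differences in each direction among separated rows past the threshold, up to 4 members past it per list (or 2 with the smallest p where none was), and 13 genes of the LPS response. ACTA2, ALDH1A3, C18H19orf33, CCL2, CCNB1, CD40, CMPK2, COL1A1, COL3A1, CTSL1, CXCL16, CYBA, CYP26B1, GAS6, GREM1, HAVCR2, ISLR, KRT5, KRT14, LOC100848478, LOC613534, MCM5, MEST, MGP, MKI67, MX1, OAS1, OAS2, OLR1, PEG10, PROS1, RARRES2, RNF125, THBD, TNFAIP2 and TNFAIP6 were added after their values were seen, as were the neighbouring genes and the markers named. The comparison and the lists were chosen with earlier results of these data known. Lists are described by counts and medians and were not tested as sets. Promoter sequences were not analysed here, and 2 genes that the rule names are not reported here.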

Additional observations from a re-analysis of the deposited data

Results flagged for a closer look

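In 24 of the 408 groups of 4 animals examined, 2 for each named gene, 1 animal stood farther from the other 3 than Dixon's limit allows. Chance alone gives about 1 in 20, so these are values to look at again and no more. Of them, 6 concern interferon-related genes in which Holstein animal 2 was the lowest of its breed. IFI44 was at 0.417 CPM there against 2.24 to 2.66 CPM in the other 3 animals, ISG15 at 3.65 CPM, OAS1 at 19.7 CPM, OAS2 at 2.099 CPM, DHX58 at 3.92 CPM and IRF9 at 11.6 CPM. The same animal was the highest in CCL2, at 374 CPM, and in RARB, at 2.14 CPM, and the lowest in CXHXorf57, at 1.47 CPM. Angus animal 3 was the highest of its breed in DDX58, at 15.7 CPM, in IRF7, at 8.61 CPM, and in SIRT3, at 1.97 CPM. Angus animal 2 was the highest in SEMA5B, at 14.4 CPM, and in ACTA2, at 4772 CPM, and the lowest in PTGS1, at 26.4 CPM, and LOC613534, at 12.7 CPM. Angus animal 1 stood at 5.81 CPM in SLC32A1, above the others of its breed. Holstein animal 3 was the lowest in MEST, at 3.26 CPM, TLR6, at 9.99 CPM, CYBA, at 22.6 CPM, and MMP15, at 1.55 CPM. Holstein animal 4 was the lowest in CENPA, at 16.4 CPM, and the highest in 1 of the ADAMTSL1 rows, at 1.56 CPM. Holstein animal 1 was the lowest in LOC100848478, at 1.71 CPM.

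In 2 genes, all animals of one breed lay above all of the other at 8 h and the order was opposite at an earlier hour. IL8 had a log2 difference of 2.19 at 8 h, while at 0 h its mean was 0.186 CPM in Angus and 0.0709 CPM in Holstein, both far under the expression limit. DUSP5 had a log2 difference of -1.14 at 8 h, while at 2 h every Holstein animal was above every Angus animal. The change between hours was not tested in either gene.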

How the results depend on the processing

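The number of rows past the threshold at 8 h (673, of which 460 higher and 213 lower) depended most on which animals were in the comparison. Leaving out each sample in turn gave 446 to 1133 rows, 314 to 760 higher and 132 to 373 lower. The low values came without Angus animal 4 and the high ones without Angus animal 3. The F test gave 523 rows, with 341 higher and 182 lower. DESeq2, other scalings, other filters and a fit of all 24 samples gave counts within 1.5 times of these, and no tested named gene changed its direction past the threshold under any of them. Of 199 tested named rows, 178 kept their side of the threshold by the F test, 191 of 196 by DESeq2, 197 with RLE scaling, 186 with scaling by total count, 191 with all 24 samples, 193 and 192 with the other filters and 198 when rows with a symbol were tested alone. Over all fits without 1 sample, 139 of 1524 values fell below the threshold and 27 passed it. Animal numbers as a replicate block gave 708 rows, 501 higher and 207 lower, but equal numbers in both breeds name unrelated animals whose deviations did not go together (r across genes from -0.221 to 0.0404 for equal numbers, 0.0247 on average for unequal ones). With scaling by total count, 21 mitosis and 9 replication genes were lower in place of 8 and 3. At 0 h, 259 rows were past the threshold in place of 781 when the 3 samples with COL1A1 reads counted otherwise were left out, an alternative chosen after seeing the data; fewer samples were then compared. Genes under about 1 CPM, TNF among them, were not tested, so a breed difference there was not detectable.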
